A study of Mus musculus with 36 samples.

Results

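Lung lavage macrophages of adult wild-type (WT) mice raised germ-free (GF, 3 mice) were compared with those of WT mice raised in a specific-pathogen-free (SPF) facility (4 mice), 7 of the 36 arrays of the series. The arrays were chosen by their labels alone. Both groups were sampled at postnatal day (PND) 42, carried no transgene and were WT littermates of Scnn1b-transgenic mice, and both are labelled C57Bl/6N Tac. SPF mice lived in micro-isolator cages and GF mice in a gnotobiotic facility, so that housing and colony differ at once and cannot be told apart. Each adult array held RNA of 1 mouse. The same comparison was available in Scnn1b-Tg mice (Tg, 3 GF and 4 SPF mice), in which airway cells overexpress Scnn1b, a subunit of the epithelial sodium channel. The other 22 arrays came from SPF mice of PND 0, 3 and 10, each a pool of 3 pups. Lavage cells were depleted of Ly-6G-bearing granulocytes with magnetic beads, and 12 ng of RNA was amplified for Affymetrix Mouse Gene 1.0 ST arrays. Values are log2 intensities, on which a difference of 1 is a 2-fold change. All 28940 analysed features were compared, of which 23099 have a gene annotation.

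Alveolar macrophages patrol the air spaces, clear surfactant lipid and inhaled particles, and sense microbial products through Toll-like receptors and CD14. They depend on GM-CSF and the nuclear receptor PPARgamma, and carry Siglec-F, MARCO and carbonic anhydrase 4. Macrophages export surplus cholesterol through ABCA1 and ABCG1. Germ-free animals lack a microbiota in the gut and airway, and the comparison asks what macrophages of a healthy lung express without it.

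The cells of both groups carried the markers of alveolar macrophages. All 25 measured markers of the list had a mean above the highest array median (4.06) in SPF mice, and their mean level was 9.74 to 9.83 in SPF arrays and 9.67 to 9.73 in GF arrays. Array medians ran from 3.72 to 4.06 over the series. The correlation between a GF and an SPF array across features was 0.9886 to 0.9908 in the 12 pairs, against 0.9899 to 0.9916 within GF and 0.99 to 0.9927 within SPF mice, a description across features, which are not independent.

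The sexes of the mice differed between the groups, although the study describes male mice. Xist, the RNA that coats the inactive X chromosome and is expressed in females, was at 3.06 to 3.27 in the 4 SPF arrays, at 9.62 and 9.54 in GF replicates 1 and 2, and at 3.45 in GF replicate 3. The Y-linked genes showed the opposite. Kdm5d, a histone demethylase, was at 6.28 to 6.59 in SPF mice, 3.44 and 3.36 in GF replicates 1 and 2, and 6.31 in GF replicate 3. Eif2s3y, a translation factor subunit, was at 6.97 to 7.75 in SPF mice, 3.09 and 3.3 in the same GF replicates and 7.84 in GF replicate 3, and Uty followed them (5.73 to 5.8, then 3.4 and 3.75, and 5.34). Thus 2 of 3 GF arrays read as female and 1 as male, whereas 4 of 4 SPF arrays read as male. The same numbers of arrays divided in this way in Tg mice, where Xist was at 9.14, 9.35 and 3.15 in GF and at 2.98 to 3.29 in SPF mice. Between GF and SPF WT mice Xist (limma adjusted p = 0.914) and Kdm5d (0.329) did not pass. Results are therefore given also with GF replicate 3 as the single GF array, in which case its spread is assumed to be that of the other groups, and with Xist as a term of the model.

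**Figure D1:**
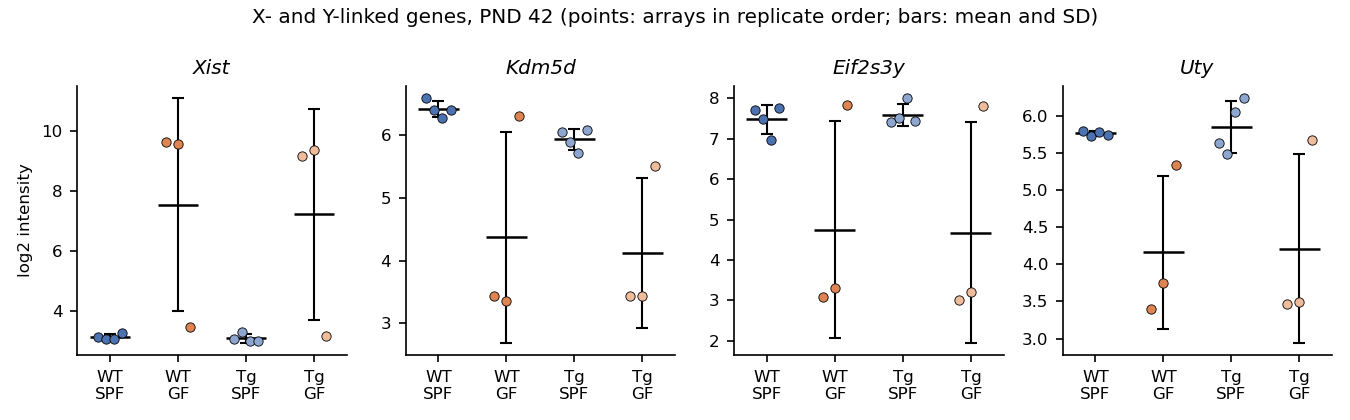
Log2 intensity of Xist and of the Y-linked genes Kdm5d, Eif2s3y and Uty in the arrays of PND 42 (points in replicate order from left to right, with mean and SD by group; WT and Tg, SPF and GF). GF replicates 1 and 2 of each genotype are high in Xist (9.14 to 9.62) and low in the Y-linked genes, and GF replicate 3 lies with the SPF arrays.

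Few genes passed the test between macrophages of GF and SPF WT mice. With limma and Benjamini-Hochberg adjustment, 19 of 28940 features passed an adjusted p of 0.05 (0.0657%), 3 higher in GF mice (0.0104%) and 16 lower (0.0553%). Of these, 15 (0.0518%) also differed 2-fold or more, 1 up and 14 down. Without adjustment, 1306 features (4.51%) had a p under 0.05. Of the 23099 annotated features 7 passed (0.0303%): Lrmda and Csn1s2b rose, and Wdfy1, Nnt, Abca1, Tgfb2 and Igf2bp3 fell. The other 12 features carry no gene name here. The 3 GF arrays lay wholly outside the 4 SPF arrays for each of the 7 genes, and for 7.83% of all features. With GF replicate 3 as the single GF array 7 features passed, 4 of them among the 19, namely Nnt, Lrmda, Tgfb2 and 1 unnamed feature. With the term for Xist 21 features passed, of which 18 were among the 19. Of the annotated genes Csn1s2b did not pass with this term (limma adjusted p = 0.097). Lrmda (0.000116), Wdfy1 (0.00307), Nnt (6.35e-05), Abca1 (0.00738), Tgfb2 (0.011) and Igf2bp3 (0.0167) did. The 7 annotated genes lie on 6 chromosomes, and for 0 of them did the gene next to it on the chromosome pass as well.

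Nnt, the mitochondrial transhydrogenase that makes NADPH from NADH, was lower in GF mice. Its SPF arrays read 6.85, 6.92, 7.0 and 6.79, and its GF arrays 5.8, 5.76 and 5.48. The groups did not overlap, and all 3 GF mice, of either sex, were at a like level. The difference was -1.21 (SE 0.12, 95% interval -1.46 to -0.95, 2.31-fold lower, limma adjusted p = 1.63e-06), and -1.41 (limma adjusted p = 0.000605) with GF replicate 3 alone. C57BL/6J mice are known to carry a deletion within Nnt that C57BL/6N mice lack. Of 14 measured genes of mitochondrial NADPH supply and peroxide removal, 1 fell, Nnt itself, and 0 rose. The others lay between -0.52 for Mthfd2, a folate enzyme, and 0.12 for the thioredoxin Txn2, with Idh2, which also makes mitochondrial NADPH, at -0.09.

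Wdfy1, an endosomal adaptor for the receptors TLR3 and TLR4, is a further gene whose expression is known to differ between C57BL/6 substrains. It read 6.73, 6.19, 6.41 and 6.15 in SPF mice and 4.33, 5.23 and 5.03 in GF mice. The groups did not overlap, with GF replicate 1 below the other GF mice. The difference was -1.5 (SE 0.21, 2.84-fold lower, limma adjusted p = 0.000301), and -1.33 (limma adjusted p = 0.117) with GF replicate 3 alone. It passed in each of the 7 fits that left out 1 WT array, though not in the fit on the 7 WT arrays by themselves (limma adjusted p = 0.131). Of 7 measured genes in a list of reported differences between C57BL/6 lines, 2 fell, Nnt and Wdfy1, and 0 rose. That list was written with these values known, so its count is a description. Entpd4 (0.13, 95% interval -0.38 to 0.64), the insulin-degrading enzyme gene Ide (-0.12, interval -0.43 to 0.19), Crb1 (0.00), Cyfip2 (-0.25) and Mmrn1 (0.15) did not pass.

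Lrmda, a leucine-rich repeat gene known for its part in melanocyte differentiation, rose in GF mice. Its SPF arrays read 5.67, 5.35, 4.99 and 5.27, and its GF arrays 7.85, 7.92 and 7.62. The rise was 2.48 (SE 0.28, 95% interval 1.91 to 3.05, 5.57-fold, limma adjusted p = 7.21e-06), and 2.30 (limma adjusted p = 0.0447) with GF replicate 3 alone. None of the 30 SPF arrays of any age or genotype exceeded 6.48, below all 6 GF arrays.

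**Figure D2:**
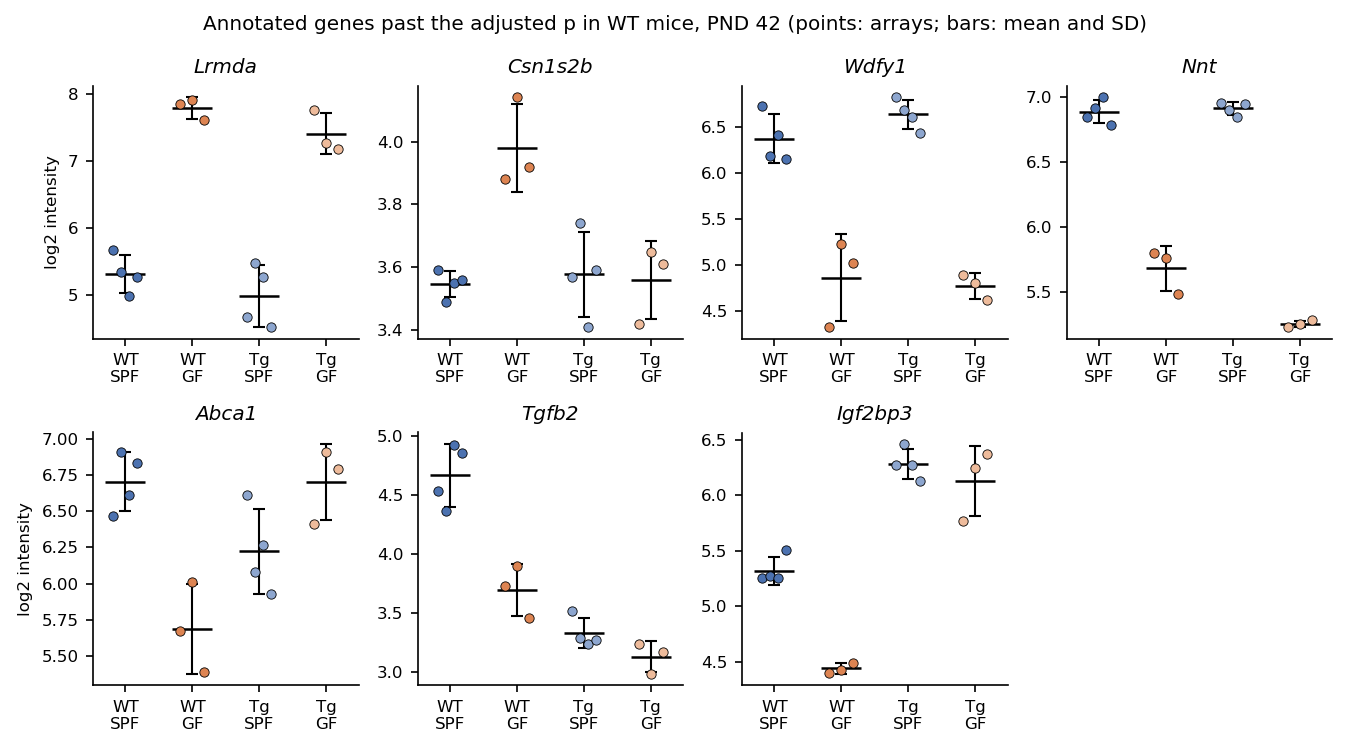
Log2 intensity of the 7 annotated genes that passed the adjusted p in WT mice (points are arrays, bars mean and SD; WT and Tg mice in SPF and GF housing; each panel has its own scale, which does not start at 0). Lrmda, Wdfy1 and Nnt are displaced alike in both genotypes, whereas the differences in Tg mice were -0.20 for Tgfb2, -0.16 for Igf2bp3 and -0.02 for Csn1s2b.

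Abca1, the transporter that loads cellular cholesterol onto apolipoprotein A-I and is switched on by sterol-activated LXR receptors, was 2.02-fold lower in GF WT mice. It read 6.47, 6.91, 6.61 and 6.83 in SPF mice and 5.67, 6.01 and 5.39 in GF mice. The groups did not overlap. The difference was -1.02 (SE 0.19, 95% interval -1.40 to -0.63, limma adjusted p = 0.015). The call was among the less stable, passing in 3 of the 7 fits that left out 1 WT array. It was lost without SPF replicates 2 or 4 or GF replicates 1 or 3, with adjusted p up to 0.2. It also did not pass on the 7 WT arrays (limma adjusted p = 0.178) or the 14 adult arrays (0.0969). With GF replicate 3 alone the difference was -1.32. In Tg mice Abca1 was 0.48 higher in GF than in SPF housing (95% interval 0.09 to 0.87, limma adjusted p = 0.472). The difference between the genotypes in GF minus SPF was 1.5 (95% interval 0.95 to 2.05, limma adjusted p = 0.0729).

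Among 21 measured genes of lipid uptake, storage and oxidation, Abca1 alone fell and 0 rose, with a median of -0.10 beside 0.01 over all features. Abcg1, the second cholesterol exporter, differed by -0.10, the LXR gene Nr1h3 by -0.19, the scavenger receptor Cd36 by -0.13 and the lipid droplet protein Plin2 by -0.13, none past the test. Of 22 measured genes of cholesterol and fatty acid synthesis none passed, and their median of 0.20 was the highest of the 44 lists. Being the largest of 44 medians is by itself no result about the list. In this list 15 genes were above 0, and 4 had an unadjusted limma p under 0.05, beside 4.51% of all features. These 4 were higher in GF mice: the isomerase Idi1 (0.67), the desaturase Sc5d (0.56), the methyl sterol oxidase Msmo1 (0.47) and the sterol-sensing factor Srebf2 (0.33). Their adjusted p were 0.617 or more. The mean level of the list was 7.05 to 7.27 in SPF arrays and 7.28 to 7.36 in GF arrays of WT mice. In Tg mice its median was -0.19.

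Tgfb2, which encodes the transforming growth factor beta 2 ligand, read 4.53, 4.36, 4.92 and 4.85 in SPF mice and 3.73, 3.9 and 3.46 in GF mice. The GF values were within or below the range of the array medians, so that the size of the fall, -0.97 (SE 0.16, limma adjusted p = 0.0014), is limited by background. With GF replicate 3 alone it was -1.21 (limma adjusted p = 0.0447), and on the 7 WT arrays by themselves Tgfb2 did not pass (0.207). Igf2bp3, an RNA-binding protein of fetal and proliferating cells, was tightly grouped, at 5.25, 5.27, 5.25 and 5.51 in SPF and 4.4, 4.43 and 4.49 in GF mice. It fell by 0.88 on the log2 scale (SE 0.14, limma adjusted p = 0.000904). With GF replicate 3 alone its difference was -0.83, and on the 7 WT arrays by themselves it passed (limma adjusted p = 0.0238). In SPF WT mice it was at 6.73 to 7.8 at the younger ages, so that the adult GF arrays were the lowest of all WT arrays. Csn1s2b, a milk casein gene, stood at 3.49 to 3.59 in SPF mice and at 3.88, 4.14 and 3.92 in GF mice. These values lie around the array medians, the difference was 0.43 (limma adjusted p = 0.0367), and it passed in 0 of the 7 fits that left out 1 WT array.

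Of the features that passed, 1 without a gene name differed most. Feature 10468877 read 10.28, 10.05, 9.21 and 10.02 in SPF mice and 5.3, 4.7 and 4.06 in GF mice, a difference of -5.2 on the log2 scale (36.8-fold, limma adjusted p = 1.63e-06). No SPF array of any age was below 7.54 in it. Feature 10598055 rose, from 11.5, 11.5, 11.25 and 11.34 to 12.35, 12.3 and 12.29 (difference 0.92, limma adjusted p = 0.000613). The 11 unnamed features that fell had differences of -1.2 to -5.2, and 4 of them have identical values in every array and so count as 1 measurement. Feature 10415081, 1 of these 4, was at 11.16 to 11.31 in SPF mice and at 8.6, 7.36 and 10.33 in GF mice. The GF mice thus differed among themselves far more than the SPF mice did (SD 1.49 against 0.07). On the 7 WT arrays alone the 4 identical features (limma adjusted p = 0.3), 10351504 (0.318), 10389717 (0.291), 10429968 (0.291) and 10510221 (0.066) did not pass. Features 10468877 (0.00134), 10551998 (0.0178), 10573865 (0.00534) and 10598055 (0.0178) did. Over the 8 different measurements among the 11 features, GF replicate 2 was the lowest of the 3 in 5 and GF replicate 3 the highest in 6. With GF replicate 3 alone the difference of feature 10415081 shrank to -0.94 (limma adjusted p = 1), beside -5.83 (limma adjusted p = 0.000683) for feature 10468877.

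The Tg mice gave the same comparison in other animals of the same housing. Colony and the sexes read from Xist divided between the groups there as in WT mice. Agreement between the genotypes therefore cannot tell housing, colony and sex apart. There 41 features passed the adjusted p (0.142%), and 11 features passed in both genotypes in the same direction, 57.9% of the WT and 26.8% of the Tg calls. The 4 identical features are among the 11, so these shares count 1 measurement 4 times. With the term for Xist 5 features passed in both genotypes. Of the 7 annotated genes 3 were among the 11. Nnt was at 6.85 to 6.96 in SPF and 5.23, 5.25 and 5.28 in GF Tg mice (-1.66, limma adjusted p = 1.59e-09). Wdfy1 fell by 1.86 on the log2 scale (limma adjusted p = 5e-06) and Lrmda rose by 2.42 (limma adjusted p = 6.93e-06). Tgfb2 (-0.20, 95% interval -0.51 to 0.12), Igf2bp3 (-0.16, interval -0.44 to 0.12) and Csn1s2b (-0.02, interval -0.19 to 0.16) did not pass in Tg mice. Tgfb2 was already at 3.24 to 3.52 in SPF Tg mice, while Igf2bp3 stood higher there, at 6.13 to 6.46. Of the 12 unnamed features, 8 passed in Tg mice, the 4 identical ones among them, and all 12 had the same sign.

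A test of the difference between the genotypes in GF minus SPF called 1 feature (0.00346%), Ccl8, a monocyte-attracting chemokine, and 908 features had an unadjusted p under 0.05. Ccl8 was at 2.8, 3.11, 2.93 and 3.18 in SPF and 2.77, 2.93 and 2.99 in GF WT mice, all near background, and at 3.19 to 4.69 in SPF and 7.25, 5.5 and 7.94 in GF Tg mice (difference of differences 3.27, 95% interval 2.34 to 4.21, limma adjusted p = 0.00183). The call was lost in the fit on the 14 adult arrays (limma adjusted p = 0.441), and Ccl8 did not enter the fit without dim features. In WT mice the chemokines Ccl12 (0.39), Ccl2 (0.04) and Ccl7 (-0.45) did not pass either. For Tgfb2 (0.77), Igf2bp3 (0.72) and Csn1s2b (-0.45) the difference between genotypes had an adjusted p of 1, so a difference between genotypes in GF minus SPF was not shown for them.

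**Figure D3:**
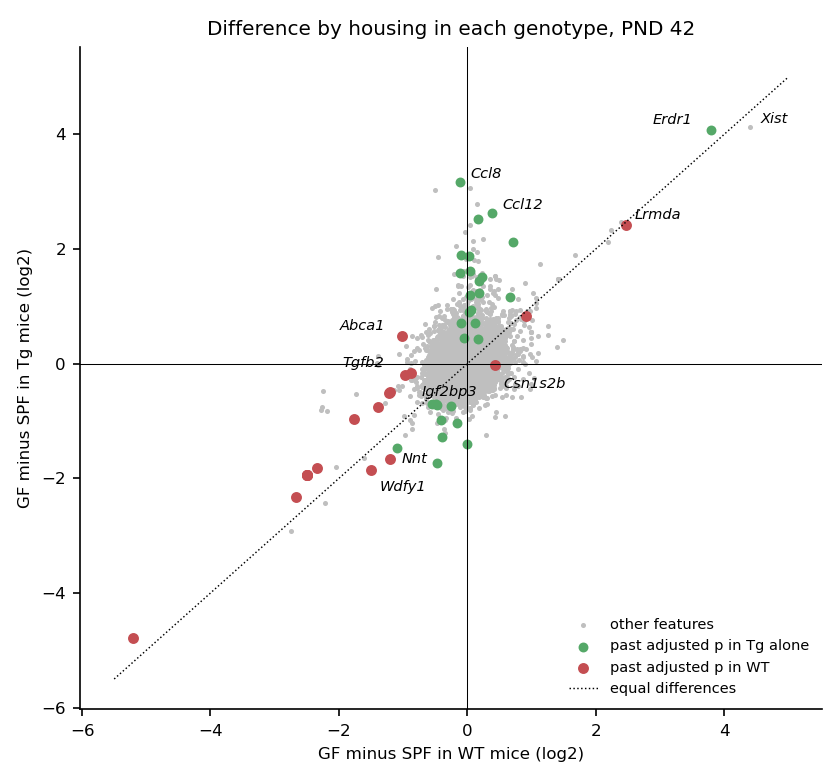
Difference of GF minus SPF mice (log2) for each of 28940 features in WT mice (horizontal) and Tg mice (vertical); red points passed the adjusted p in WT mice, green points in Tg mice alone, and the dotted line marks equal differences. Nnt, Wdfy1 and Lrmda lie near the line, Abca1 to the upper left, and Ccl8 is raised in Tg mice with a WT difference of -0.11.

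Set against all 30 SPF arrays, the GF arrays of both genotypes stood apart in 7 features, 4 of them annotated: Lrmda, Wdfy1, the zinc finger gene Zcchc3 (-0.41 in WT mice) and the sialyltransferase St3gal4 (0.25), the last pair chosen after their values were seen and without a call in WT mice. Wdfy1 was never below 6.15 in an SPF array. Nnt reached levels as low as those of GF mice at birth, with 4.93 to 5.28 in WT pools of PND 0, and was at 6.5 to 7.07 at PND 3 and 6.66 to 6.89 at PND 10. Abca1 ranged from 4.65 to 9.04 over the SPF arrays, wider than its difference by housing.

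No gene in the lists for microbial sensing and inflammation passed the test, but with 0.0657% of all features past it a count of 0 in a list is no result about the list, and the values and intervals carry the comparison. Of 24 measured genes of Toll-like receptors and endotoxin sensing 0 passed, the median was -0.02, and for 23 of the 24 the 95% interval lay within 2-fold. Tlr2, the lipopeptide receptor, was at 9.42 to 9.68 in SPF and 9.39 to 9.71 in GF mice (difference 0.01, 95% interval -0.26 to 0.27). Tlr4, the endotoxin receptor (0.02, interval -0.26 to 0.30), its partner Ly96 (-0.05, interval -0.57 to 0.48) and the co-receptor Cd14 (0.24, interval -0.09 to 0.58) were likewise within 2-fold. The cytokines had wider intervals, with Tnf at 0.42 (-0.19 to 1.03), Il1b at 0.37 (-0.43 to 1.16) and Il6 near background at 0.05 (-0.60 to 0.71). None passed among 21 NF-kB targets (median 0.08), 24 interferon-stimulated genes (-0.06), 11 interferon-gamma-induced genes (0.03), 10 genes of MHC class II presentation (-0.13), 15 CC chemokines (0.10) and 13 CXC chemokines (0.08), beside a median of 0.01 over all features.

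Gene lists of macrophage activation and of other pathways gave 0 calls as well. For alternative activation the median over 20 genes was 0.01, with the chitinase-like protein gene Chil3 at 12.2 in SPF and 12.21 in GF mice and Arg1 and Retnla near background in both. The median was -0.04 over 14 genes of classical activation, 0.13 over 22 genes of mitosis, -0.06 over 22 lysosomal genes, 0.02 over 18 Nrf2 targets, -0.03 over 16 clock genes and 0.03 over 9 genes of the aryl hydrocarbon receptor pathway, a receptor for microbial and dietary indoles. In all, 3 of 663 different list members passed (0.452%), Nnt, Wdfy1 and Abca1, beside 0.0657% of all features and 0.0303% of annotated ones, and Nnt and Wdfy1 were put on a list with their values known. At this background most lists would hold no call, and 41 of 44 had none. For 558 members the 95% interval lay within 2-fold. Over all features the interval was within 2-fold for 96.4%, with a median half-width of 0.31.

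**Figure D4:**
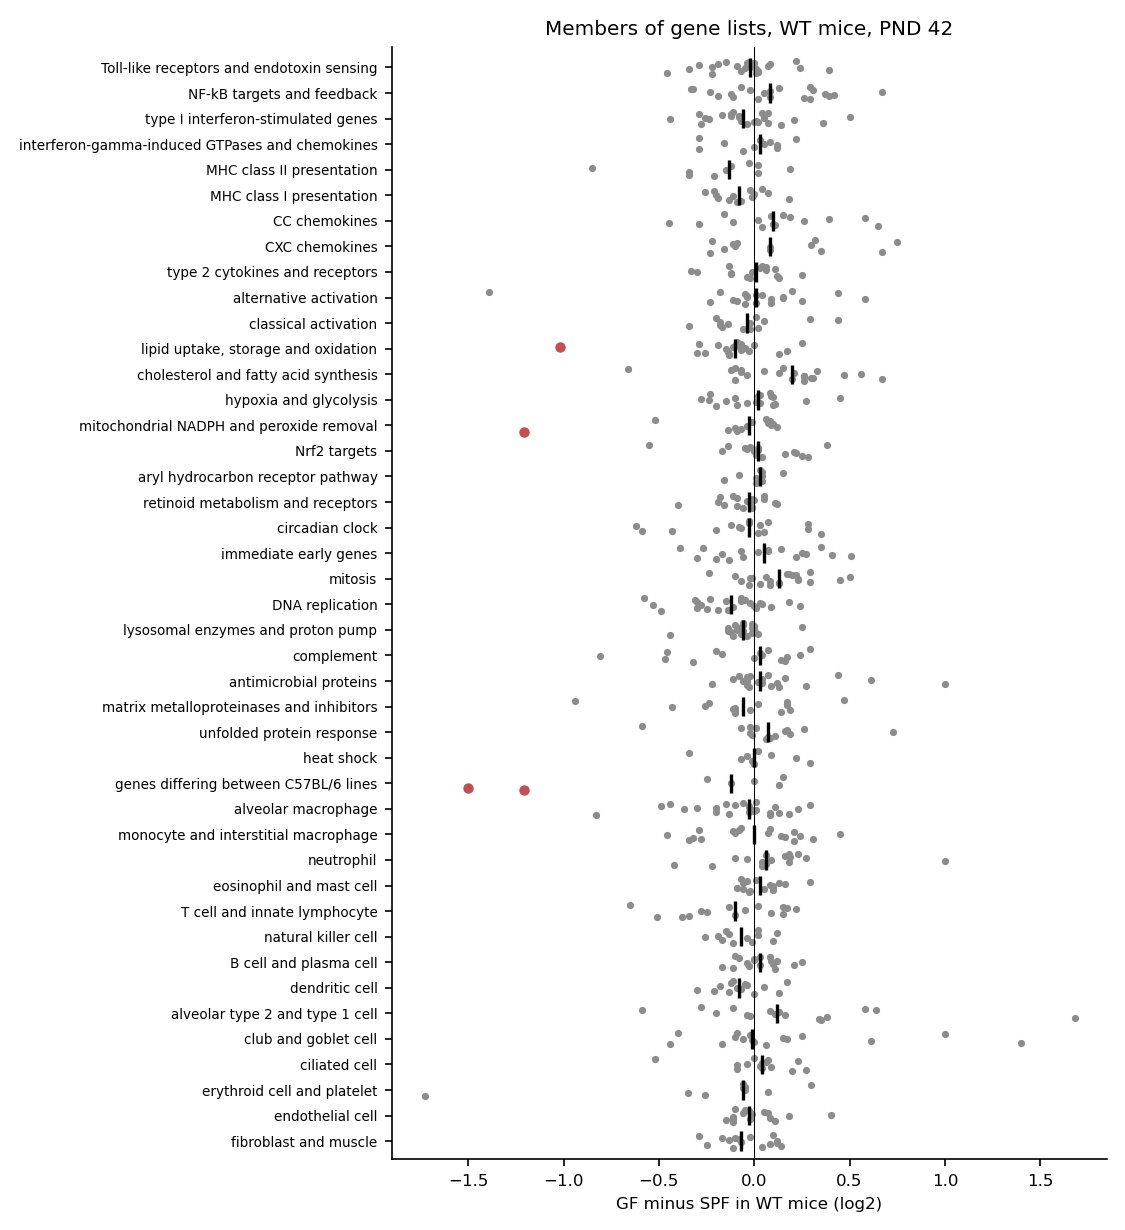
Difference of GF minus SPF WT mice (log2) for the measured members of the gene lists, the sex-linked list left out; each point is a gene, red points passed the adjusted p and black bars are list medians. The red points are Abca1, Nnt (in 2 lists) and Wdfy1, and the medians lie between -0.13 and 0.20.

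Among alveolar macrophage markers, the scavenger receptor gene Marco was lower in GF mice without passing. It read 8.71, 8.92, 8.58 and 9.08 in SPF and 8.08, 7.66 and 8.24 in GF mice (-0.83, 95% interval -1.34 to -0.32, limma adjusted p = 0.58), and it differed by -0.89 in Tg mice. Csf2ra, a subunit of the GM-CSF receptor, differed by -0.49 (limma adjusted p = 0.617). Siglecf (0.08, interval -0.36 to 0.52), Pparg (0.18, interval -0.14 to 0.49), Car4 (-0.13, interval -0.34 to 0.08) and Itgax (-0.20, interval -0.58 to 0.18) were within 2-fold. In bulk RNA, fewer cells of a type and less RNA per cell cannot be told apart.

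Single markers of lung epithelium were higher in GF arrays without passing, and the medians of the epithelial lists were at most 0.12. Sftpc, the surfactant protein C gene of alveolar type 2 cells, read 6.42, 6.07, 6.76 and 6.33 in SPF and 7.53, 8.5 and 8.21 in GF mice (1.68, 95% interval 0.83 to 2.54, limma adjusted p = 0.236), and was 1.9 higher in GF Tg mice (limma adjusted p = 0.0578). Cyp2f2, a club cell cytochrome, read 4.87, 4.95, 4.09 and 4.49 in SPF and 6.09, 5.58 and 6.35 in GF mice (1.40, limma adjusted p = 0.208), but differed by 0.29 in Tg mice. Ltf, the lactoferrin gene of airway glands and neutrophils, differed by 1.00 (limma adjusted p = 0.137). For each of these 3 genes, chosen after their values were seen, the groups did not overlap, as for 7.83% of all features. With array weights each of them passed, and Ltf did so without PND 0 as well. Over the 16 measured alveolar type 2 and type 1 markers 0 passed, 10 were above 0, the median was 0.12, and the mean level was 4.54 to 4.66 in SPF and 4.75 to 4.85 in GF arrays, with 7 markers at or under the highest array median in both groups. Over the 16 club and goblet markers 0 passed, 7 were above 0 and the median was -0.01. The mean level was 3.91 to 4.19 in SPF and 4.17 to 4.25 in GF arrays. In both groups 9 markers were at or under the highest array median. Scgb1a1, the club cell secretory protein gene, was at 7.52 and 7.59. An unadjusted limma p under 0.05 was found for 3 alveolar and 3 club and goblet markers, beside 4.51% of all features. They were all higher in GF mice, and 0 ciliated markers had such a p. What part these epithelial cells have in the other differences was not tested. For ciliated cells (median 0.04 over 14 genes), neutrophils (0.06 over 17), T cells (-0.10 over 15), B cells (0.03 over 17) and dendritic cells (-0.08 over 14) none passed.

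Erdr1, Cfb, Igf1 and Anpep, chosen after their values were seen, missed the adjusted p. Their GF and SPF arrays did not overlap, which held for 7.83% of all features. Erdr1, a gene of the pseudoautosomal region, read 5.53, 7.12, 6.0 and 6.91 in SPF and 10.05, 10.62 and 9.89 in GF mice. Its difference was 3.80 (SE 0.86, 13.9-fold, limma adjusted p = 0.144). With GF replicate 3 alone it was 3.5, and with the term for Xist it was 2.75 (limma adjusted p = 0.757). Erdr1 rose by 4.08 in Tg mice (limma adjusted p = 0.0432). In WT mice Erdr1 passed in 4 of 22 alternatives. Among them were the fits on the 7 WT arrays (limma adjusted p = 0.0166), on the 14 adult arrays (0.0219) and without the pools of PND 0 (0.0159). Among the younger WT pools Erdr1 ran from 3.83 to 9.01. Cfb, complement factor B, read 8.9, 9.19, 9.03 and 9.31 in SPF and 8.4, 8.33 and 8.18 in GF mice (-0.81, limma adjusted p = 0.0528), and differed by 0.05 in Tg mice. Cfb passed in 8 of 22 alternatives, among them the 14 adult arrays (limma adjusted p = 0.0194), the fit without PND 0 (0.0371) and the term for Xist (0.00474), but not on the 7 WT arrays (0.125). With GF replicate 3 alone the difference of Cfb was -0.93. Igf1, insulin-like growth factor 1, read 7.01, 7.05, 7.3 and 6.6 in SPF and 5.18, 5.83 and 5.78 in GF mice (-1.39, limma adjusted p = 0.38), and Anpep, aminopeptidase N, differed by -1.41 (limma adjusted p = 0.254). Igf1 passed in 2 of 22 alternatives, on the 14 adult arrays (limma adjusted p = 0.0117) and with array weights, and Anpep in none. In SPF Tg mice both stood higher, at 9.59 to 9.98 for Igf1 and 10.41 to 10.86 for Anpep, and neither differed by housing by more than 0.03 there. Among genes named whatever their values, Emb, a glycoprotein of the basigin family, differed by 0.67 in WT mice (limma adjusted p = 0.584) and rose by 1.17 in Tg mice (limma adjusted p = 0.0092). The neighbouring ectonucleotidase genes Enpp4 (-0.87) and Enpp5 (-0.48) did not pass in WT mice, and Enpp5 fell by 1.73 on the log2 scale in Tg mice (limma adjusted p = 0.000131).

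**Figure D5:**
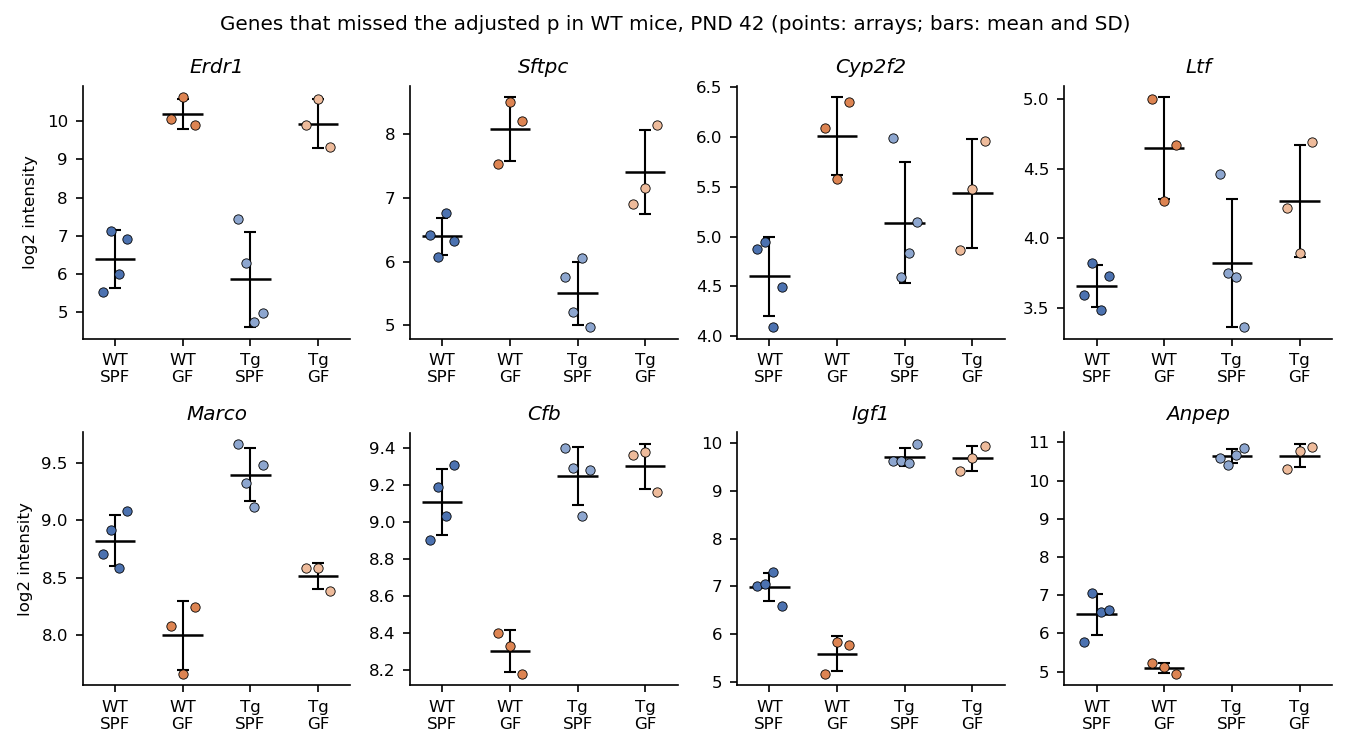
Log2 intensity of 8 genes that missed the adjusted p in WT mice (points are arrays, bars mean and SD; WT and Tg mice in SPF and GF housing; each panel has its own scale, which does not start at 0). Erdr1 and Sftpc are higher and Marco lower in GF mice of both genotypes, whereas for Cfb, Igf1 and Anpep GF arrays are lower in WT mice and overlap with SPF arrays in Tg mice, with an adjusted p of 1 for the difference between genotypes.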

How the data were processed

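Per the labels the authors made log2 intensities with RMA in Partek 6.5 (the study's methods describe GC and sequence adjustment, quantile normalization and median polish); the deposited log2 table was used unchanged. Features numbered below the first annotated feature (6616 of 35556) were left out as presumed controls. Of the annotated features 21218 had 1 symbol and 1881 several, and the feature of highest mean stands for a gene. Linear models (limma 3.58.1, R 4.3.3) had 1 mean for each of 10 groups of all 36 arrays (26 residual degrees of freedom), two-sided moderated tests and Benjamini-Hochberg adjustment over 28940 features. The procedure was run on simulated data with independent errors and no sex differences, so that run does not bear on how sex affects these calls. The number of arrays limits the precision. The text names every annotated gene of known name past the adjusted p, called list members and a hand-written set, and says where others were chosen after their values were seen. The comparison, the 44 lists and these genes were chosen with earlier results of these data known. Alternatives changed the arrays fitted, normalization, variance model, filters, limits and a term for Xist, and left out single arrays. Same-numbered WT arrays did not deviate together (r -0.0198 to 0.00205), so numbers were not taken as pairs. Ly6g was not analysed here.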

Additional observations from a re-analysis of the deposited data

Results flagged for a closer look

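The difference between genotypes in GF minus SPF passed its test for Ccl8, at 3.27 on the log2 scale, in the fit on all arrays but not in that on the 14 adult arrays (limma adjusted p = 0.441). Ccl8 was near background in WT mice of both housings.

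In the group of 4 SPF WT mice, 1 array stood apart from the other three by a gap that took up most of the group's range (Dixon's criterion) in 12 of the 70 named genes and features. Chance gives about 1 in 20 such values, and 4 of the 12 are 1 measurement given 4 times. SPF replicate 4 was high in Igf2bp3 (5.51, the others 5.25 to 5.27) and in 1 other unnamed feature (10.73, the others 10.59 to 10.6). SPF replicate 3 was high in Ide (7.79), Ahr (3.53) and Emb (8.39, the others 8.01 to 8.05). SPF replicate 1 was high in Il1b (6.52, the others 5.15 to 5.36). SPF replicate 2 was low in Il4 (2.56) and Ccl2 (3.12), both near background, and in the 4 identical unnamed features (11.16, the others 11.29 to 11.31).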

How the results depend on the processing

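For the 70 genes and features named, none of 1504 recomputed differences turned its direction where either value was called, and 82 changed sides of the adjusted p. Of the 19 calls, 17 passed in every fit that left out 1 WT array, the exceptions being Abca1 and Csn1s2b. Leaving out 1 array gave 17 to 23 calls in WT mice (14 to 17 with 2-fold), 8 to 76 in Tg mice, 1 to 4 for the difference between genotypes, 5 to 12 shared by both genotypes and 2 to 4 list members. In Tg mice the count rested on single arrays, being 8 and 12 without SPF replicates 2 and 4, 76 without SPF replicate 3, and 68 and 24 without GF replicates 2 and 3. The shared calls were 5 and 6 without SPF replicates 2 and 4 and 7 and 6 without GF replicates 1 and 2 of the Tg mice. The difference between genotypes gave 2 calls without Tg SPF replicate 1 or WT GF replicate 2, and 4 and 3 without Tg GF replicates 1 and 2.

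The fit on the 7 WT arrays alone gave 9 calls (7 with 2-fold) and 1 list member. Array weights gave 56 calls (27 with 2-fold) and 9 list members in WT mice, 70 in Tg mice and 2 for the difference between genotypes. With 1 feature per gene there were 6 calls (4 with 2-fold), 3 shared and 2 for the difference between genotypes, and with annotated features only 6 (4) and 3 shared, since unnamed features are left out. Without the pools of PND 0 there were 70 calls in Tg mice and 5 list members. Without moderation there were 18 calls in Tg mice and 6 shared. The fit on the 14 adult arrays gave 6 shared and 0 for the difference between genotypes (limma adjusted p of Ccl8 0.441, 1390 features with an unadjusted p under 0.05). Leaving out dim features also gave 0 (425 unadjusted), as Ccl8 was left out. With a term for Xist there were 23 calls in Tg mice, 5 shared and 2 for the difference between genotypes. With only the GF arrays of low Xist, an alternative chosen after seeing the data like the annotated features, there were 7 calls in WT mice (7 with 2-fold), 238 in Tg mice, 39 for the difference between genotypes, 3 shared and 1 list member; each group then has 1 GF array. The replicate block gave 16 calls in WT mice (13 with 2-fold), 25 in Tg mice and 11 shared, and under this pairing Abca1 (limma adjusted p = 0.115), Tgfb2 (0.0578) and Csn1s2b (0.173) were lost, where the numbers do not pair the mice. The cause of these shifts was not tested. None of 132 recomputed list medians moved by more than 1 SD. Differences near background are compressed, and 3 GF arrays limit the precision.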

Other observations

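Further lists, each without a gene past the adjusted p in WT mice, had these medians of GF minus SPF on the log2 scale. Genes of DNA replication were at -0.12 (24 measured, 17 below 0, 2 with an unadjusted p under 0.05), beside 0.13 for the 22 genes of mitosis (16 above 0, 2 unadjusted). Over all features 4.51% had an unadjusted p under 0.05. The median was 0.02 for 19 genes of hypoxia and glycolysis, 0.07 for 15 genes of the unfolded protein response, 0.00 for 9 heat shock genes and 0.05 for 18 immediate early genes. It was 0.03 for 15 complement genes, 0.03 for 22 antimicrobial proteins, -0.06 for 16 metalloproteinases and inhibitors, 0.01 for 16 type 2 cytokines and receptors, -0.08 for 14 genes of MHC class I presentation and -0.03 for 18 genes of retinoid metabolism.

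Of other cell types, monocyte and interstitial macrophage markers had a median of 0.00 (18 measured), natural killer cell markers -0.07 (12 measured, all 12 near background in both groups), eosinophil and mast cell markers 0.03 (16), erythroid and platelet markers -0.06 (9), endothelial markers -0.03 (16) and fibroblast and muscle markers -0.07 (15). In a principal component analysis of the 14 adult arrays the first component (42.3% of the variance) separated the genotypes, and on the second (10.6%) WT GF arrays lay at 9.4 to 15.4 and WT SPF arrays at -10.9 to -4.2. Tg GF arrays lay at 9.9 to 25.9 on the second and Tg SPF arrays at -23.3 to -7.1, so every GF array was above every SPF array.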
